A study of Mus musculus with 18 samples.

Results

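Chromosome 6 of the mouse was described through its histone-mark peaks and its RNA in MC3T3-E1 subclone 4 cells, a clonal mouse calvarial pre-osteoblast line (C57BL/6, passage 9) that lays down mineralised matrix when given osteogenic medium. The cells received 2.5 µM EPZ6438, an inhibitor of the methyltransferase EZH2, or the vehicle DMSO at 0.25%, both in osteogenic medium with ascorbic acid and glycerol phosphate, and were collected on day 3 (DMSO in the EPZ6438 arm is not given in the sources used here). RNA was sequenced in 3 EPZ6438 samples and 3 DMSO samples. Chromatin immunoprecipitation (ChIP) was run for the histone marks H3K27me3 and H3K4me3, with 2 samples per mark and arm and input DNA as control. All samples come from the same subclone, so a property of that clone is shared by both arms. Each mark and arm has 1 merged peak list, which gives starts and ends only. The members are all peaks whose chromosome is 6 in those 4 lists, 19821 of 220492 peaks, and they were set against 198229 peaks on the other 18 autosomes. They comprise 2378 H3K27me3 peaks with EPZ6438, 12494 H3K27me3 peaks with DMSO, 990 H3K4me3 peaks with EPZ6438 and 3959 H3K4me3 peaks with DMSO. The RNA table holds 2134 genes of chromosome 6 among 43346. Chromosome 6 was chosen by its high peak density in these same lists, so density is given here as a description, without a test.

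H3K27me3 is laid by Polycomb repressive complex 2, whose catalytic subunit is EZH2, and it covers genes that a cell keeps silent, among them many developmental regulators. H3K4me3 marks the starts of genes that are transcribed or ready to be, most of all at promoters rich in CpG dinucleotides. Promoters that carry both marks are called bivalent and are typical of developmental genes held at a low level. Mouse chromosome 6 carries the HoxA cluster, Ezh2 itself, the imprinted genes Peg10 and Mest, the immunoglobulin kappa locus, the natural killer gene complex and Col1a2, which encodes a chain of type I collagen, the main protein of bone matrix.

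Promoters of 5 chromosome 6 genes are shown because peaks of the marks lay on or near them. Each is the RefSeq stretch from 250 bases before to 50 after the start (GRCm38.p6, the assembly of the mm10 coordinates), written 5′ to 3′ on the gene's strand with every CG in capitals. Clec2l, Asb4 and Klrg2 had both marks in DMSO on the printed bases or within 1 kb of either end of them, which is the rule used for promoters throughout. Chn2 had H3K27me3 alone there and Chd4 H3K4me3 alone, and these 2 were added for contrast after their values were seen.
Clec2l, chr6:38662819-38663118, plus strand: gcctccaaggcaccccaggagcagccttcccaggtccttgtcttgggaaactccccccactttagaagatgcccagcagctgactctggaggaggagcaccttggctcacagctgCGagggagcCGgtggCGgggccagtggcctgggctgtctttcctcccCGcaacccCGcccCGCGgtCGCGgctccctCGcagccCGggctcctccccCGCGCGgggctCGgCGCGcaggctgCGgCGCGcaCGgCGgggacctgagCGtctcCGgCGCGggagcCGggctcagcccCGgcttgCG
Asb4, chr6:5390160-5390459, plus strand: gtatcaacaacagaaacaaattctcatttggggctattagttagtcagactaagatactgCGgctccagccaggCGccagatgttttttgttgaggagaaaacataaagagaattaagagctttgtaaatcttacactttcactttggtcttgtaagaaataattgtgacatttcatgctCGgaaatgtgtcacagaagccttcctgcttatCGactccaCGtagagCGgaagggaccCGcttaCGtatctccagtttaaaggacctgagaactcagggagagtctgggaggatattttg
Klrg2, chr6:38637190-38637489, minus strand: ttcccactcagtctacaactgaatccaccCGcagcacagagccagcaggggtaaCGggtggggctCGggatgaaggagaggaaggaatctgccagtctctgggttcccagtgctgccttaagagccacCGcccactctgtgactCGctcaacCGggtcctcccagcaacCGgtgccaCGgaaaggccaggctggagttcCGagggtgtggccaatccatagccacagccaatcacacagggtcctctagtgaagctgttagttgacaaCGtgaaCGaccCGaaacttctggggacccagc
Chn2, chr6:54039682-54039981, plus strand: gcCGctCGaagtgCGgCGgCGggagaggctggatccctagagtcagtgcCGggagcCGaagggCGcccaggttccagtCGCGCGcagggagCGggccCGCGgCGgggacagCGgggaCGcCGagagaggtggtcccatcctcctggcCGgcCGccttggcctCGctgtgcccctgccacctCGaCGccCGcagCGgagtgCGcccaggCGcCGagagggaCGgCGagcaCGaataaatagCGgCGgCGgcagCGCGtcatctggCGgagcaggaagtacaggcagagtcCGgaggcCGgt
Chd4, chr6:125095913-125096212, plus strand: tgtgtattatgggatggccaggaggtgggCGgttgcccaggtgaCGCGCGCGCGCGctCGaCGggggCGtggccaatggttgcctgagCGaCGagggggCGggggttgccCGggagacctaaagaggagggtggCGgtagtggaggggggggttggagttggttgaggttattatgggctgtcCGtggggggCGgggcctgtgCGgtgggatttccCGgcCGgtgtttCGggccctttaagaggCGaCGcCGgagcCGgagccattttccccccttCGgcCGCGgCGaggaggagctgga
The letters CG occur 29 times in the Clec2l promoter, 8 times in that of Asb4, 12 times in that of Klrg2, 39 times in that of Chn2 and 29 times in that of Chd4. Of all 31396 promoters in the RefSeq table, 94.8% hold at least 1 CG, with a median of 7, so a CG alone sets no promoter apart. The DMSO H3K27me3 peak at Clec2l (chr6:38662658-38664411, 1754 bp) spanned all 300 bases shown, and the EPZ6438 peak of the same mark (chr6:38662932-38663416, 485 bp) covered 187 of them. At Asb4 the H3K27me3 peaks (chr6:5389635-5389819 with EPZ6438 and chr6:5389533-5389824 with DMSO) and the H3K4me3 peak of DMSO (chr6:5389585-5389790) lay beside the promoter and covered none of these bases. At Klrg2, DMSO peaks of H3K27me3 (chr6:38638439-38639893) and H3K4me3 (chr6:38638476-38638670) likewise lay beside it, and the EPZ6438 lists held no peak within 1 kb. At the Chn2 promoter shown, the DMSO H3K27me3 peak (chr6:54040632-54040856) covered none of the bases either, and the EPZ6438 lists held no peak within 1 kb.

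H3K27me3 peaks were packed more densely on chromosome 6 than on most autosomes in both arms, and H3K4me3 peaks were so in DMSO but not with EPZ6438. With EPZ6438, chromosome 6 held 16.2 H3K27me3 peaks per Mb, against a median of 8.45 over the other 18 autosomes (range 3.43 on chromosome 14 to 19.8 on chromosome 19), a ratio of 1.92. In DMSO it held 85.3 H3K27me3 peaks per Mb, against a median of 59.5 (range 30.8 to 98.7), a ratio of 1.43. In both lists chromosome 19 alone was denser. For H3K4me3, chromosome 6 held 6.76 peaks per Mb with EPZ6438, against a median of 6.58 (range 2.96 to 12.8), a ratio of 1.03 and the ninth place among 19 autosomes. In DMSO it held 27.02 H3K4me3 peaks per Mb, against a median of 15.0 (range 5.38 to 36.5), a ratio of 1.80, behind chromosomes 19 and 17. One merged list per mark and arm leaves no replicate error for a density.

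**Figure D1:**
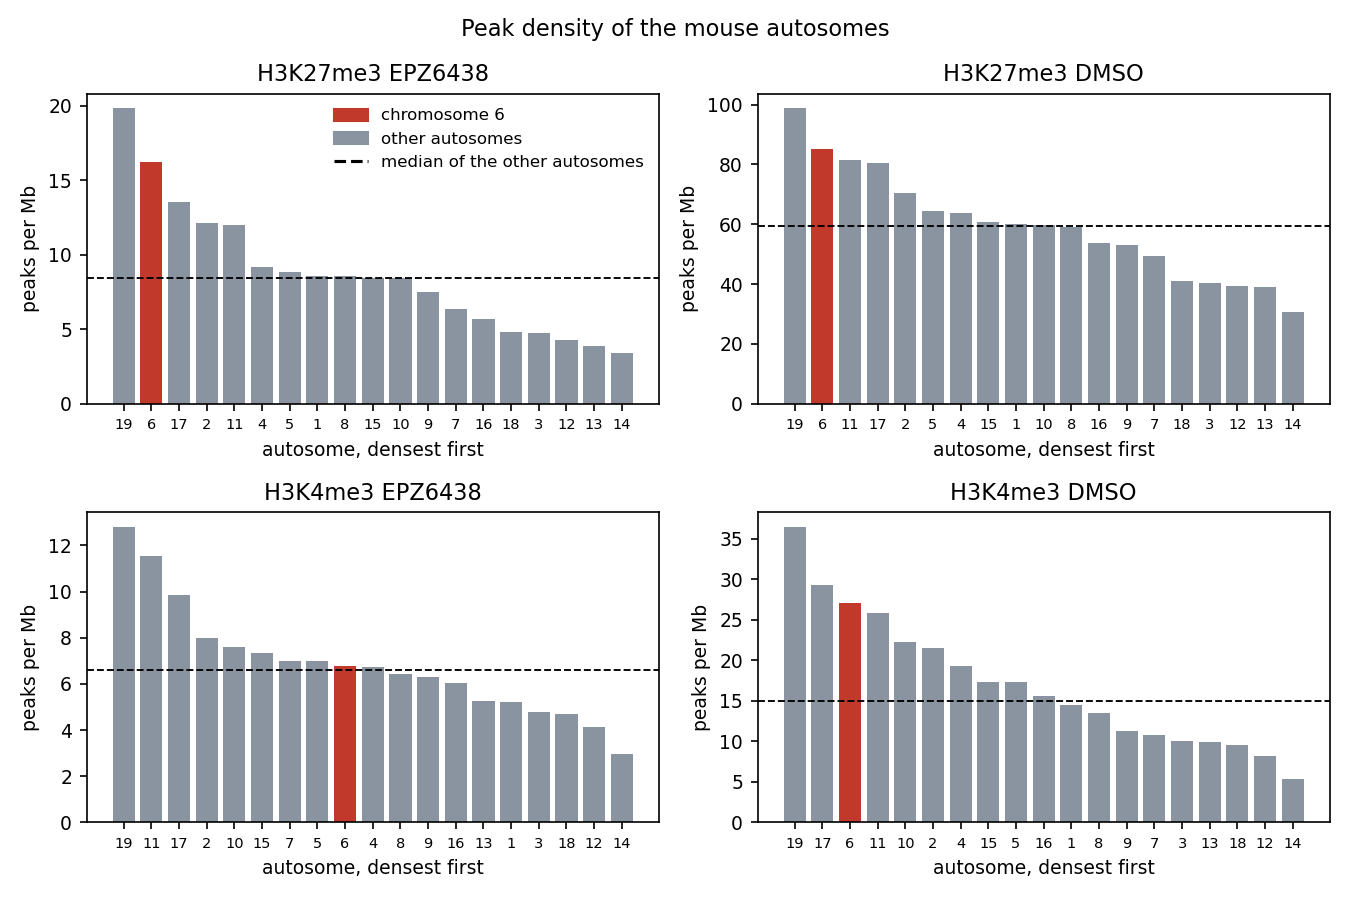
Peaks per Mb (vertical axes) of each autosome in the 4 merged lists, ordered from the densest; chromosome 6 is red, the other autosomes are grey, and the dashed line is the median of the other 18. Chromosome 6 stands next to chromosome 19 in both H3K27me3 lists (16.2 with EPZ6438 and 85.3 with DMSO) and in the middle of the H3K4me3 list of EPZ6438 (6.76).

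Chromosome 6 made up 11.5% of the autosomal H3K27me3 peaks with EPZ6438 (95% exact binomial interval 11.1 to 11.96%) and 8.83% with DMSO (8.68 to 8.98%). Its share of the autosomal H3K4me3 peaks was 6.19% with EPZ6438 (5.82 to 6.58%) and 9.94% with DMSO (9.64 to 10.2%). It holds 6.10% of the autosomal span and 5.46% of the autosomal genes of the RNA table. Intervals here cover counting error only. Its H3K27me3 peaks were also wide: the median width was 518.5 bp with EPZ6438, against a median of 399.75 bp over the other autosomes, and 446 bp with DMSO, against 385 bp. H3K4me3 peaks had median widths of 432 bp on chromosome 6 and 400 bp elsewhere with EPZ6438, and of 211 bp and 211.5 bp with DMSO. H3K27me3 covered 1.05% of chromosome 6 with EPZ6438, against a median of 0.447% of the other autosomes, and 5.87% with DMSO, against 3.55%.

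Both marks had fewer peaks on chromosome 6 with EPZ6438 than with DMSO, and against the other autosomes the number left ranked high for H3K27me3 and lowest for H3K4me3. The EPZ6438 list held 19.03% as many H3K27me3 peaks on chromosome 6 as the DMSO list, against a median of 14.0% for the other autosomes (range 9.87 to 20.1%), the second highest of 19. For H3K4me3 the figure was 25.01%, against a median of 43.5% (range 33.6 to 65.1%), the lowest of 19. Both ranks are built from the same peak counts that chose chromosome 6, so they are not separate from its density. Peak numbers depend on read depth and caller settings, which the lists do not carry. By position, 1767 of 12494 H3K27me3 peaks of DMSO on chromosome 6 (14.1%) overlapped an EPZ6438 peak by at least 1 bp, against a median of 10.5% (range 6.74 to 15.1%) elsewhere. Of 2378 EPZ6438 peaks of this mark, 1791 (75.3%) overlapped a DMSO peak, against a median of 75.4%. The DMSO peaks that overlapped one of EPZ6438 were wide, with a median of 814 bp on chromosome 6, and the others had a median of 408 bp. For H3K4me3, 640 of 3959 DMSO peaks (16.2%) overlapped an EPZ6438 peak, against a median of 24.2% (range 20.1 to 35.9%), again the lowest of 19. The overlap shares of both marks are not separate from that density either. Limited to peaks of at least 400 bp in both arms, the H3K4me3 share on chromosome 6 was 50.4% of 337 peaks, and at an overlap of at least 50% of the peak the H3K27me3 share was 7.64%. The other autosomes were not measured at these settings, so the place of chromosome 6 there is not known. The 3319 DMSO peaks of H3K4me3 without an EPZ6438 partner were 1.91 times as dense on chromosome 6 as the median elsewhere, and the 640 with a partner 1.15 times.

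The excess of H3K27me3 ran along nearly the whole chromosome. Of 29 bins of 5 Mb, 26 lay above the median of 443 bins of the other autosomes with EPZ6438 and 27 with DMSO. For H3K4me3, 17 bins lay above that median with EPZ6438 and 27 with DMSO. With EPZ6438, 13 of the 29 bins exceeded the 90th percentile of other bins for H3K27me3 (16.6 peaks per Mb), and 2 did so for H3K4me3 (13 per Mb). With DMSO, 5 did so for H3K27me3 (95.76 per Mb) and 8 for H3K4me3 (31.16 per Mb). Bins of like gene number gave the same order: where bins held under 40 genes, the chromosome 6 median was 8.6 H3K27me3 peaks per Mb with EPZ6438, against 2.8 elsewhere, and 69.6 with DMSO, against 32.3. In bins with 80 genes or more it was 19.3 with EPZ6438, against 10.6 elsewhere, and 93.6 with DMSO, against 72.5. H3K4me3 in those gene-rich bins had a median of 9.6 per Mb with EPZ6438, against 9.8 elsewhere, and 29.3 with DMSO, against 19.2.

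**Figure D2:**
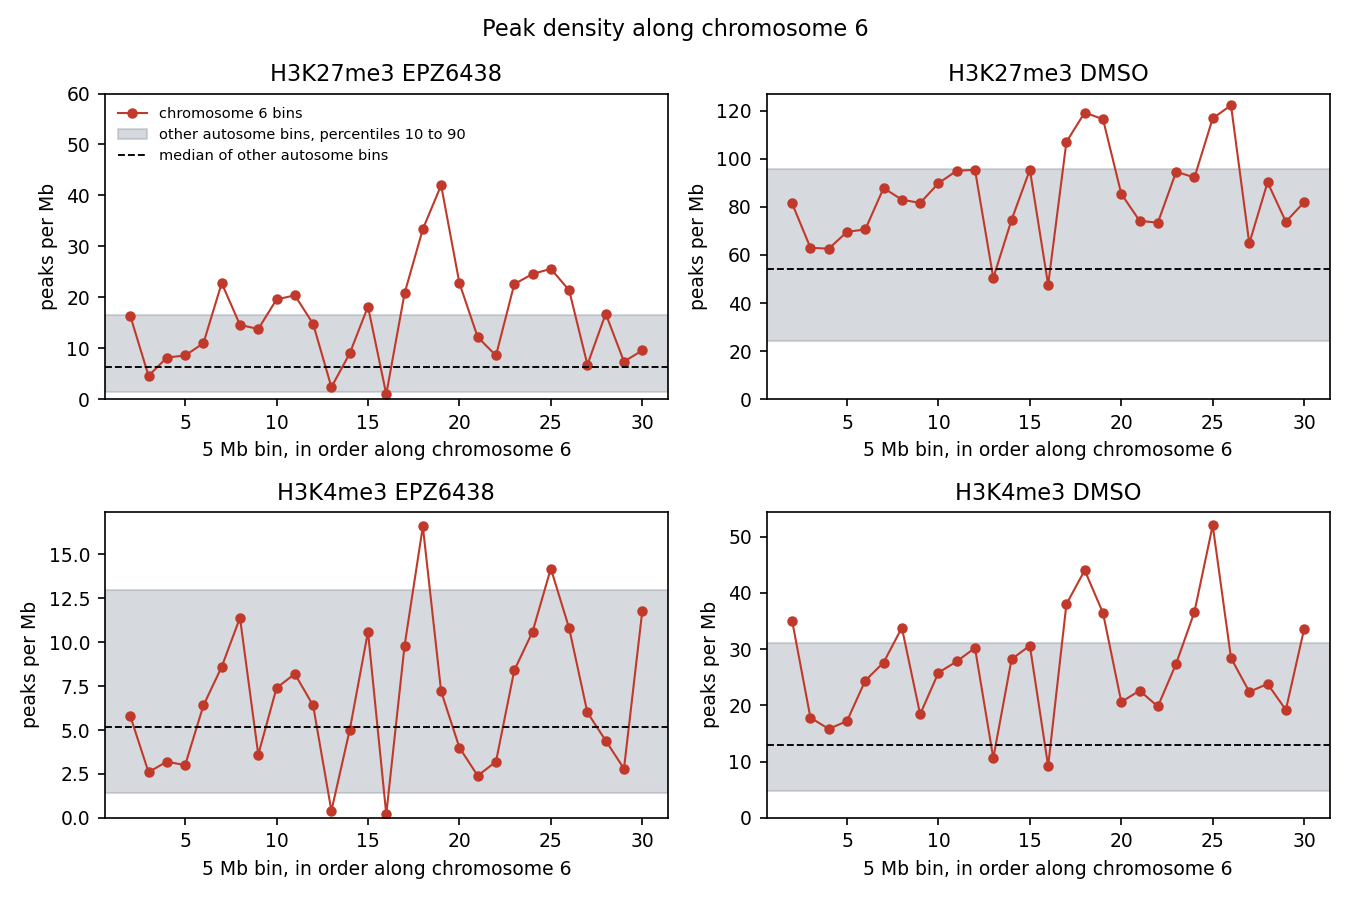
Peaks per Mb (vertical axes) in 29 bins of 5 Mb in their order along chromosome 6 (red points), with the 10th to 90th percentiles (grey band) and the median (dashed line) of 443 bins on the other autosomes. The H3K27me3 points lie above the dashed line in 26 bins with EPZ6438 and in 27 with DMSO, and 2 dips at 60 to 65 Mb and 75 to 80 Mb recur in all 4 lists.

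The bins from 85 to 90 Mb and from 120 to 125 Mb were among the 3 densest in every list. The first holds 122 genes, the most abundant of which was Cnbp, a nucleic acid binding protein, and it had 33.4 H3K27me3 peaks per Mb with EPZ6438 and 119.2 with DMSO, beside 16.6 and 44 H3K4me3 peaks per Mb. The second, with 140 genes led by Tpi1, a glycolytic enzyme, had 25.6 H3K27me3 peaks per Mb with EPZ6438 and 116.8 with DMSO, beside 14.2 and 52 of H3K4me3. The bin from 90 to 95 Mb was the densest of the EPZ6438 H3K27me3 list, with 42 peaks per Mb. Within it, the window from 91 to 92 Mb held 98 H3K27me3 peaks with EPZ6438 and 171 with DMSO, the most of 145 windows of 1 Mb in both arms, whose medians were 14 and 83. The 2 sparsest bins were the same in every list. From 75 to 80 Mb, where 2 of 19 genes reached 1 RPKM, there was 1 H3K27me3 peak per Mb with EPZ6438 and 47.6 with DMSO. From 60 to 65 Mb, where none of 13 genes did, there were 2.4 and 50.4. Across the 29 bins, peak density and the number of genes at 1 RPKM or more went together, with Pearson's r of 0.714 and 0.856 for H3K27me3 with EPZ6438 and DMSO, and of 0.967 and 0.848 for H3K4me3. Bins share their libraries and vary in base composition, so these are descriptions.

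Wnt7a, a secreted Wnt ligand, lies in that dense window (mm10, chr6:91363981-91411363) and still had H3K27me3 peaks called with the inhibitor. Peak calls without a score do not give the amount of the mark. The gene overlapped 14 H3K27me3 peaks with EPZ6438, which covered 28.4% of it, and 15 with DMSO, which covered 22.4%. The widest of them was an EPZ6438 peak of 2999 bp (chr6:91396094-91399092). No read of Wnt7a was counted in any of the 6 RNA libraries, which allows at most 0.160 CPM in each. The HoxA cluster (chr6:52155590-52260880), which sets position along the body axis, overlapped no H3K27me3 peak with EPZ6438 and 6 with DMSO, which covered 2.24% of it. H3K4me3 peaks there numbered 4 with EPZ6438 and 7 with DMSO. The immunoglobulin kappa segments, silent outside B cells, spanned 13 H3K27me3 peaks with EPZ6438 and 193 with DMSO. Ezh2, Cav1 and Cxcl12 overlapped no H3K27me3 peak in either arm.

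The excess of H3K27me3 was greatest among wide peaks and away from promoters. For H3K27me3 with EPZ6438, the ratio of chromosome 6 to the median of the other autosomes was 1.52 for peaks under 300 bp, 2.05 for those of 300 bp to under 1000 bp and 3.04 for the 375 peaks of 1000 bp or more. With DMSO the ratios were 1.30, 1.46 and 1.87 in the same order of width. By position, H3K27me3 peaks within 1 kb of a promoter had ratios of 1.70 with EPZ6438 and 1.23 with DMSO, and peaks outside genes and promoters had ratios of 2.04 and 1.497. H3K4me3 with EPZ6438 stayed near 1 under 300 bp (0.953) and from 300 bp to under 1000 bp (0.987), and the 116 peaks of 1000 bp or more had a ratio of 1.78. H3K4me3 with DMSO had ratios of 1.78, 1.77 and 2.30 in the same order of width, the last from 17 chromosome 6 peaks. Its ratio was 1.22 within 1 kb of a promoter and 1.90 outside genes and promoters. Promoter positions of chromosome 18 were not analysed here, so values that use promoters rest on 17 other autosomes.

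**Figure D3:**
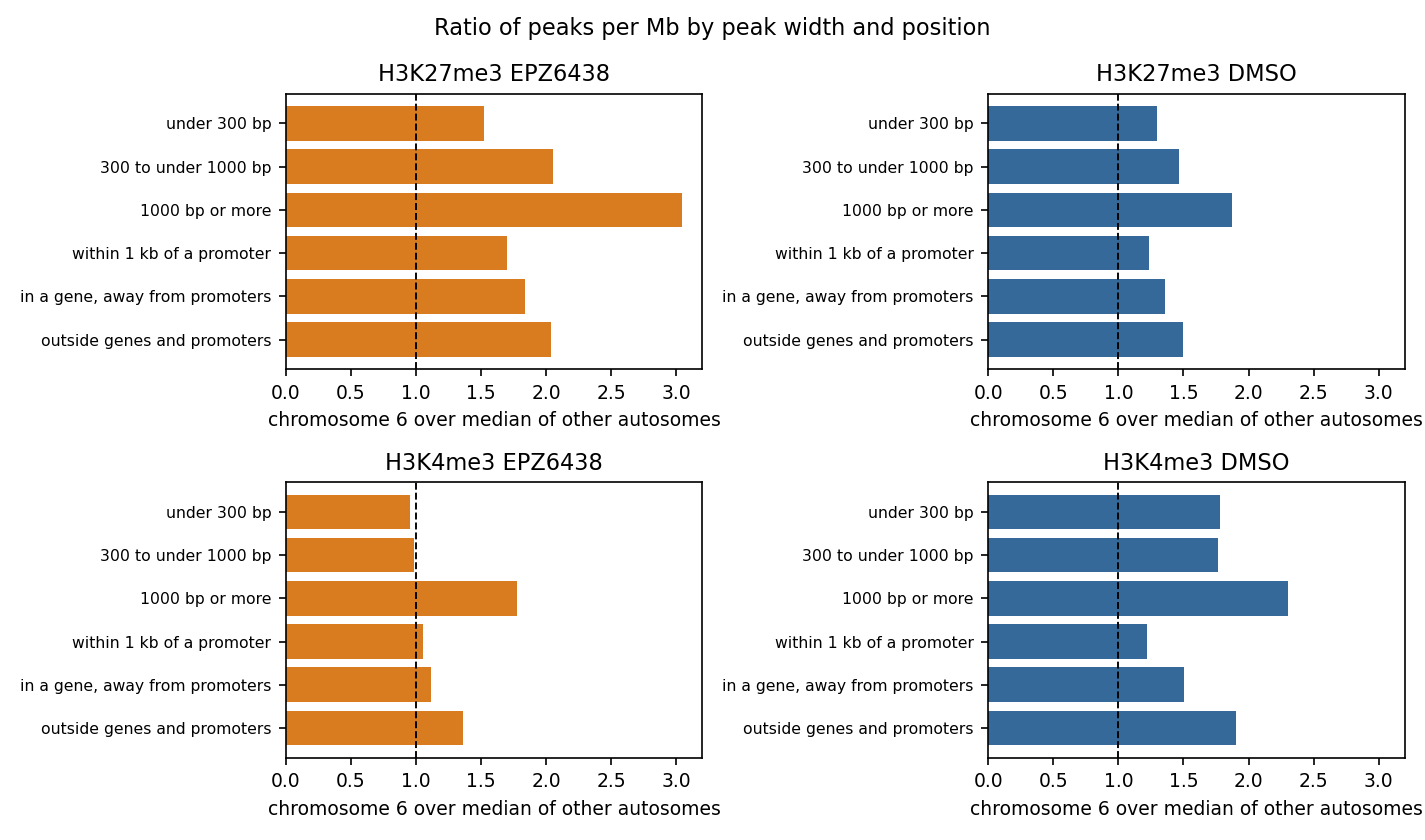
Ratio of peaks per Mb on chromosome 6 to the median of the other autosomes (horizontal axes), by peak width and by position, for each merged list; orange bars are EPZ6438, blue bars are DMSO, and the dashed line marks a ratio of 1. The ratio rises with width in both H3K27me3 lists, up to 3.04 with EPZ6438, and the H3K4me3 list of EPZ6438 stays near 1 except for wide peaks (1.78) and peaks outside genes (1.36).

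Few H3K4me3 peaks of the DMSO list lay near promoters. Of 3959 such peaks on chromosome 6, 555 (14.0%) lay within 1 kb of a promoter, against 20.9% on the other autosomes, whereas with EPZ6438 the figures were 62.1% and 65.8%. Most peaks of the DMSO list were narrow, with 79.5% under 300 bp on chromosome 6 and 78.97% elsewhere. On chromosome 6, 2404 of the 3959 (60.7%) overlapped an H3K27me3 peak of DMSO, against a median of 45.0% on the other autosomes (range 33.3 to 56.2%), the highest of 19. This rank is not separate from the peak density that chose chromosome 6, since denser H3K27me3 leaves more to overlap. Chromosome 19, the densest autosome, was the highest of the others. Of those 2404, 54 (2.25%) lay within 1 kb of a promoter. Away from promoters, 69.0% of the DMSO H3K4me3 peaks of chromosome 6 overlapped H3K27me3, against 57.7% elsewhere, and near promoters 9.73% did, against 6.10%. With EPZ6438, 21 of 990 H3K4me3 peaks (2.12%) overlapped H3K27me3, against a median of 0.739% (range 0.1003 to 1.65%), again the highest of 19 and again not separate from H3K27me3 density. None of those 21 overlaps remained when both lists were limited to peaks of at least 400 bp.

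Of 1865 promoters on chromosome 6, 97 (5.20%) had an H3K27me3 peak within 1 kb with EPZ6438, against 2.83% of 29531 promoters elsewhere, and 364 (19.5%) with DMSO, against 14.5%. Both shares were the highest of the 18 autosomes with promoters, and they are not separate from the peak density that chose chromosome 6. For H3K4me3 the shares were 29.6% on chromosome 6 and 32.0% elsewhere with EPZ6438, and 27.6% and 25.3% with DMSO. Both marks were found at 5 chromosome 6 promoters with EPZ6438 (0.268%, against 0.112% elsewhere) and at 73 with DMSO (3.91%, against 2.17%). Promoters with H3K4me3 alone held the most CG in DMSO, on chromosome 6 and elsewhere. With EPZ6438, promoters with both marks held more, with medians of 27 on chromosome 6 (5 promoters) and 26 elsewhere. Those with H3K4me3 alone then held 22 and 24. In DMSO, chromosome 6 promoters with H3K4me3 alone held a median of 22.5 CG in 300 bases, those with both marks 14, those with H3K27me3 alone 5 and those with neither 3, against 24, 12, 5 and 5 on the other autosomes. The Clec2l and Chd4 promoters printed above are of the CG-rich kind. The Asb4 promoter holds 8 CG, below the median of 14 for both marks in DMSO and near the median of 7 over all promoters. Chn2, with H3K27me3 alone and 39 CG, lies far above the median of its class.

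With EPZ6438, 8 chromosome 6 genes had both marks within 1 kb of their promoters, not always of the same one. They included Gata2, a transcription factor of blood and other precursors, Abcg2, a drug efflux transporter, Wnt5b, a Wnt ligand, and Clec2l. Gata2 had 1.01, 1.14 and 1.03 RPKM with EPZ6438, against 0.317, 0.443 and 0.717 RPKM with DMSO, and the log2 change of 1.02 did not pass (adjusted p = 0.0625). Abcg2 had 14.1, 11.4 and 13.8 RPKM with EPZ6438, against 17.7, 14.4 and 12.7 RPKM with DMSO, and its arms overlapped.

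The widest H3K27me3 peaks of chromosome 6 were found again in the other arm. With EPZ6438 they were a peak of 6020 bp (chr6:115113603-115119622) 15280 bp from the nearest end of Syn2, a synaptic vesicle protein gene, one of 5555 bp (chr6:88540918-88546472) 868 bp from Kbtbd12, and one of 4189 bp (chr6:90280982-90285170) near the vomeronasal receptor gene Vmn1r54. All 3 overlapped an H3K27me3 peak of DMSO. In DMSO the widest, of 10862 bp (chr6:42645643-42656504), lay 389 bp from Fam115c and overlapped EPZ6438 peaks of both marks. A DMSO peak of 8138 bp (chr6:90277920-90286057) lay at the same place near Vmn1r54, and one of 7886 bp (chr6:145405311-145413196) lay within Lmntd1. The widest H3K4me3 peaks all overlapped genes. With EPZ6438 they lay on Wnt5b and Fbxl14 (chr6:119479277-119481940, 2664 bp), Atn1, a transcriptional co-repressor (chr6:124755455-124757756, 2302 bp), and Chd4, a chromatin remodeller (chr6:125096088-125098364, 2277 bp). With DMSO the Chd4 peak was 1895 bp wide (chr6:125096127-125098021) and the Atn1 peak 1641 bp (chr6:124755702-124757342). The Chd4 peak overlapped the last 125 of the 300 promoter bases printed above with EPZ6438 and 86 with DMSO. Chd4 RNA stood at 71.9, 69.8 and 71.8 RPKM with EPZ6438, against 66.0, 68.5 and 69.0 RPKM with DMSO, and did not pass (adjusted p = 0.600).

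The RNA libraries held 20023137 to 24140050 reads in genes with EPZ6438 and 18807156 to 25365513 with DMSO, recovered from RPKM, which scales reads by gene length in kilobases and by library total. Summed RPKM of 6 osteoblast lineage markers was 3164 to 4346 with EPZ6438 and 1637 to 3324 with DMSO, and that of 3 blood cell markers was 1.02 to 1.48 and 0.852 to 1.14. Cd68 gave nearly all of the blood cell sum, while Ptprc and Itgam had at most 1 read in any library. Most of the sum of the 6 osteoblast lineage markers came from Col1a1, at 1320 to 3583 RPKM. Of the 6, Runx2, Sp7, Alpl, Ibsp and Dlx5 were higher in every EPZ6438 sample than in any DMSO sample, and Col1a1 overlapped. Of 3 markers each, endothelial ones summed to at most 0.0683 RPKM and adipocyte ones to at most 0.180 RPKM in any library. Skeletal muscle markers summed to 0.975 to 1.68 RPKM with EPZ6438 and 0.630 to 0.785 RPKM with DMSO, all of it from Acta1, while Myod1 and Myog were at 0. The part of these markers in the results was not tested. Ezh2, the target of the drug and a gene of chromosome 6 (chr6:47530274-47595341), had 15.4, 14.1 and 15.1 RPKM with EPZ6438, against 16.2, 14.3 and 12.6 RPKM with DMSO, and did not pass (adjusted p = 0.839); the drug acts on the enzyme, so its RNA does not check the labels. The labels do not say whether replicates were separate cultures, so p-values measure only a spread among samples that may be technical.

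Genes of chromosome 6 that were expressed had a high RNA level per gene. Over genes with a mean of at least 1 RPKM, the chromosome 6 median was 13.1 RPKM, against a median of 9.07 RPKM over the other autosomes (range 7.33 to 15.3), a ratio of 1.44, and chromosome 19 alone was higher. In the EPZ6438 libraries the chromosome 6 medians were 12.9, 12.5 and 13.0 RPKM, against 9.19, 8.84 and 9.15 RPKM elsewhere. In the DMSO libraries they were 13.0, 13.0 and 12.3 RPKM, against 9.41, 9.42 and 9.25 RPKM. Chromosome 6 took the second place in each of the 6 libraries. For protein-coding genes the medians were 14.4 and 10.2 RPKM. Fewer of its genes were expressed, with 27.4% at 1 RPKM or more, against a median of 33.3% elsewhere, which places it at rank 15 of 19. With the lower limit at 0.1 RPKM the ratio of medians was 1.24. In bulk samples, fewer cells that express a gene and less RNA per cell cannot be told apart.

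**Figure D4:**
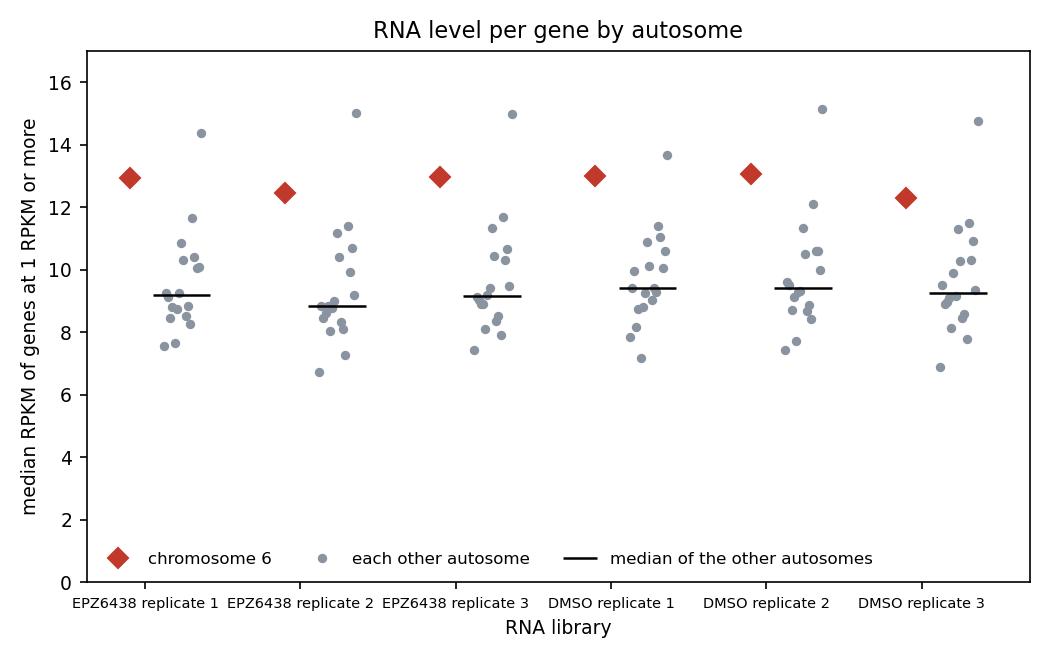
Median RPKM of genes with a mean of at least 1 RPKM (vertical axis) in each RNA library, for chromosome 6 (red diamonds) and each other autosome (grey points), with the median of the other autosomes as a line. Chromosome 6 lies between 12.3 and 13.0 in all 6 libraries, below chromosome 19 and above the 17 others.

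Peak density and RNA level went together over the 19 autosomes, with Pearson's r of 0.748 and 0.704 for H3K27me3 with EPZ6438 and DMSO, and of 0.657 and 0.778 for H3K4me3. Without chromosome 6 the values were 0.698, 0.658, 0.720 and 0.755 in the same order. Without the 2 chromosomes farthest from the median density they were 0.350, 0.517, 0.446 and 0.647, so a part of the relation rests on those chromosomes. The chromosomes share libraries and differ in gene and base content, and DNA copy number was not analysed here.

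Chromosome 6 took 8.69, 9.29 and 8.89% of the reads in autosomal genes with EPZ6438, against 8.33, 8.69 and 9.03% with DMSO. The arms overlapped, and the means of 8.95% ± 0.306 and 8.68% ± 0.353 (SD, n = 3 each) differed by 0.271 points (exact permutation test, two-sided, p = 0.5, where 3 against 3 cannot go below 0.1). Col1a2 alone accounted for 23.3 to 36.3% of the chromosome 6 reads. Without it the means were 6.20% with EPZ6438 and 6.31% with DMSO, a difference of -0.112 points (exact permutation test, p = 0.5). Col1a2 had 2054, 2703 and 2287 RPKM with EPZ6438, against 1545, 2032 and 2486 RPKM with DMSO, and did not pass (adjusted p = 0.551). Rpl32, a ribosomal protein gene, and Mgp, which encodes a matrix protein that restrains mineral growth, stood next to it in RPKM among chromosome 6 genes, and neither passed.

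EPZ6438 was followed by RNA changes on chromosome 6 in both directions. Of 676 tested genes, 35 rose and 29 fell at an adjusted p under 0.05 (limma, Benjamini-Hochberg over all 14213 tested genes), which is 5.18% and 4.29% of them. Over all tested genes 3.8% rose and 3.24% fell, 7.04% in all, and on the other autosomes 6.98% changed. The chromosome 6 share of 9.47% was the third highest of 19, after chromosomes 3 and 15. The median log2 change was -0.03 on chromosome 6 and -0.03 on the other autosomes. Values of the arms did not overlap in 208 chromosome 6 genes (30.8%), against 26.7% of all tested genes, and these 208 include all 64 that passed. Among the 64, 11 were at least 2-fold higher and 6 at least 2-fold lower on the log2(RPKM + 0.1) scale, which understates the change of low genes. The filter left out 1458 chromosome 6 genes, and 1042 had no read in any library. The count of 64 depended on single libraries: it was 22, 24 and 26 without EPZ6438 replicates 1, 2 and 3, and 16 without DMSO replicate 2. In that order, 3.25, 3.55, 3.85 and 2.37% of tested chromosome 6 genes changed, against 3.13, 2.98, 2.53 and 2.27% of all tested genes. Of the 26 passing genes named by rule, Akr1b3, Aldh1l1, Asb15, C1s2, Cdkn1b, Clec2d, Clec2l, Cracr2a, Dync1i1, Fam131b, Hk2, Klrg2, Mest and Zfp467 missed the threshold without 1 or more of these 4 libraries. Cav2, Cald1, Mical3, Tes, C1ra, Asns, Mthfd2 and Eif2ak3, also given below as passing, were not followed through these settings.

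Of the rises, some were of genes well expressed in both arms and others of genes nearly silent in DMSO. Cyp26b1, which breaks down retinoic acid, had 28.2, 29.5 and 29.6 RPKM with EPZ6438, against 8.34, 10.1 and 9.61 RPKM with DMSO, a log2 change of 1.63 ± 0.09 (SE; adjusted p = 0.000313). Every EPZ6438 sample was above every DMSO sample, and its promoter had neither mark in either arm. Aqp1, a water channel, had 157, 162 and 162 RPKM with EPZ6438, against 83.1, 83.8 and 86.1 RPKM with DMSO, a log2 change of 0.93 ± 0.06 (adjusted p = 0.000637). The replicates of each arm lay close together and far from the other arm. Cxcl12, a chemokine that bone marrow stroma makes to hold blood stem cells, had 8.75, 8.74 and 9.02 RPKM with EPZ6438, against 4.76, 3.94 and 4.20 RPKM with DMSO, a log2 change of 1.03 ± 0.11 (adjusted p = 0.00247). An H3K4me3 peak lay within 1 kb of its promoter with EPZ6438 and none did with DMSO. The same held for Aqp1, which rose, and for Pdk4 and Cdkn1b, which fell. On chromosome 6, 62 tested genes had H3K4me3 near a promoter only with EPZ6438. Of these, 5 rose and 5 fell (8.06% each), against 3.46% and 3.25% of such genes on the other autosomes. Cracr2a, a calcium-binding regulator of calcium entry, had 4.38, 4.65 and 6.75 RPKM with EPZ6438, against 2.19, 1.81 and 3.02 RPKM with DMSO, a log2 change of 1.14 ± 0.23 (adjusted p = 0.0327).

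Chn2, a regulator of the small GTPase Rac, gave the largest rise on chromosome 6. It had 46, 67 and 39 reads with EPZ6438, against 0, 0 and 1 reads with DMSO, which is 0.380, 0.483 and 0.339 RPKM against 0, 0 and 0.00686 RPKM. The ratio of reads, scaled by library totals, was 155 (95% exact counting interval 27.4 to 6153), and the fitted log2 change of 2.28 ± 0.20 (adjusted p = 0.00142) depends on the pseudocount of 0.1 RPKM. Asb4, a subunit of ubiquitin ligases, had 15, 26 and 27 reads with EPZ6438, against 1, 2 and 0 reads with DMSO, a ratio of 23.1 (7.57 to 115; adjusted p = 0.00813). Both genes were nearly silent in DMSO and low with EPZ6438. B4galnt3, a glycosyltransferase, had 0.314, 0.351 and 0.185 RPKM with EPZ6438, against 0.0281, 0.0238 and 0.0209 RPKM with DMSO (log2 change 1.60 ± 0.23, adjusted p = 0.00925). Clec2l, a lectin-like receptor gene, had 1.23, 1.13 and 0.734 RPKM with EPZ6438, against 0.223, 0.441 and 0.469 RPKM with DMSO (log2 change 1.26 ± 0.29, adjusted p = 0.0460). Klrg2, a lectin-like receptor gene close to Clec2l, had 3.06, 2.85 and 2.71 RPKM with EPZ6438, against 1.49, 1.498 and 1.80 RPKM with DMSO (log2 change 0.81 ± 0.14, adjusted p = 0.0151). Zfp467, a zinc finger protein, Dync1i1, a dynein chain, and Aldh1l1, a folate enzyme, completed the 10 largest rises, with log2 changes of 1.40, 1.16 and 1.06. These 10 are among genes with at least 1 CPM in the higher arm. Tspan12 (log2 change 1.51, limma adjusted p = 0.00527) was below that limit.

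**Figure D5:**
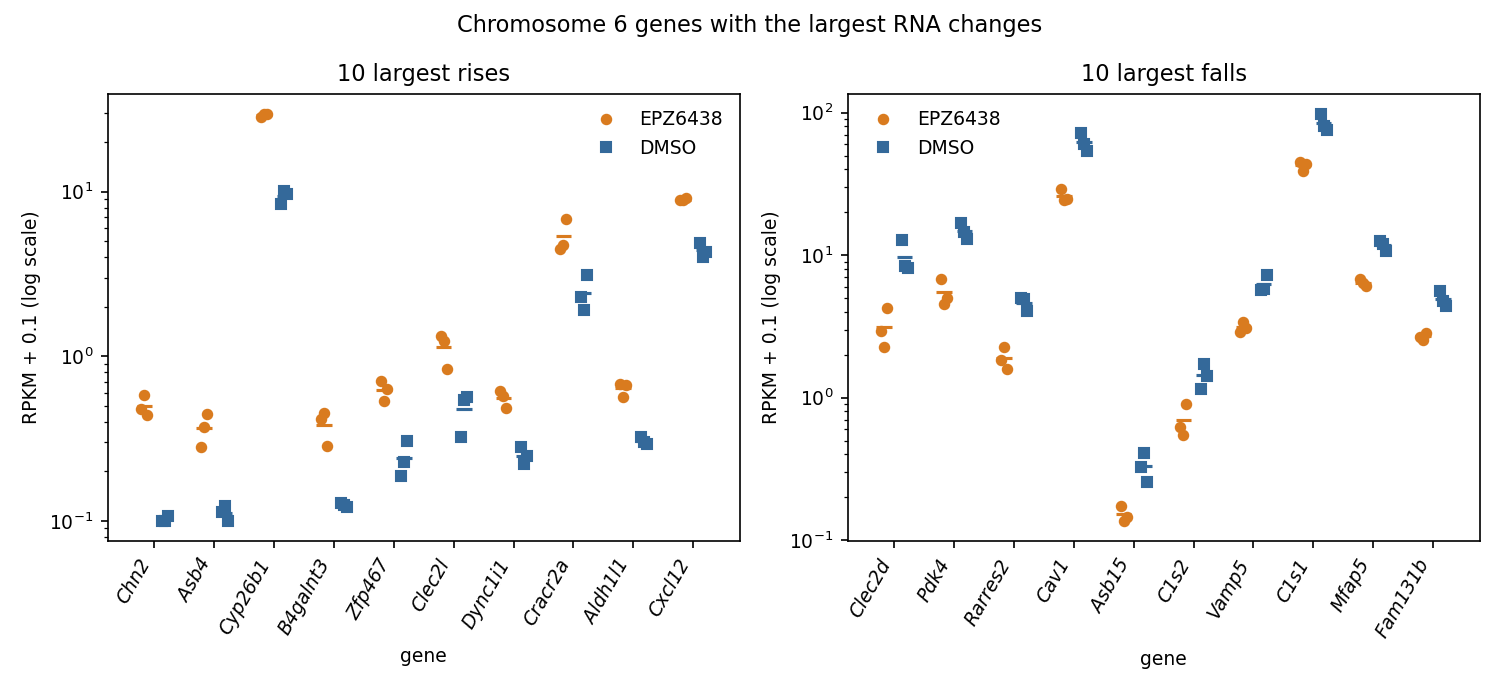
RPKM + 0.1 (vertical axes, log scale) of the 10 chromosome 6 genes with the largest rises and the 10 with the largest falls, in 3 EPZ6438 samples (orange circles) and 3 DMSO samples (blue squares); short lines are arm means. The samples of the arms do not overlap for any of the 20 genes, which was part of the rule that chose them, as was at least 1 CPM in the higher arm.

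The falls given here were of genes with reads in every library. Cav1, the main coat protein of caveolae, had 28.9, 24.2 and 24.7 RPKM with EPZ6438, against 72.1, 60.6 and 53.8 RPKM with DMSO, a log2 change of -1.25 ± 0.13 (adjusted p = 0.00219). Its lowest DMSO sample was above its highest EPZ6438 sample, and H3K4me3 was the only mark at its promoter in both arms. Pdk4, a kinase that turns off glucose oxidation, had 6.75, 4.46 and 4.91 RPKM with EPZ6438, against 16.7, 14.5 and 12.9 RPKM with DMSO, a log2 change of -1.45 ± 0.17 (adjusted p = 0.00413). Clec2d, a ligand of natural killer cell receptors, had 2.86, 2.15 and 4.16 RPKM with EPZ6438, against 12.7, 8.30 and 7.99 RPKM with DMSO, a log2 change of -1.65 ± 0.27 (adjusted p = 0.0145). It was the largest fall, and the spread within DMSO was wide. C1s1, a serine protease of the first complement component, had 44.8, 39.0 and 43.7 RPKM with EPZ6438, against 98.0, 81.1 and 74.9 RPKM with DMSO, a log2 change of -0.99 ± 0.12 (adjusted p = 0.00373). Its neighbour and near copy C1s2 had a log2 change of -1.07 (adjusted p = 0.0470), and reads of the pair may be split between them. Mfap5, a microfibril protein of elastic matrix, had 6.67, 6.25 and 5.95 RPKM with EPZ6438, against 12.4, 11.9 and 10.6 RPKM with DMSO, a log2 change of -0.87 ± 0.10 (adjusted p = 0.00369). Rarres2, Asb15, Vamp5 and Fam131b completed the 10 largest falls with at least 1 CPM in the higher arm, with log2 changes of -1.30, -1.11, -0.998 and -0.87. Slco1a5 (log2 change -0.999) was below that limit.

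Groups of chromosome 6 genes were counted by lists of known loci and functions, beside a background of 3.8% of all tested genes that rose and 3.24% that fell. None of the 8 tested genes of the HoxA cluster and Evx1 passed by limma or by voom on recovered reads, and 1 had an unadjusted p under 0.05, with a median log2 change of -0.24, against -0.03 over the tested genes of the other autosomes. Hoxa10, the most abundant, had 3.86, 3.29 and 3.60 RPKM with EPZ6438, against 4.11, 4.43 and 4.604 RPKM with DMSO (adjusted p = 0.223). None of 3 tested homeobox genes outside the cluster passed by limma as fitted or by voom, and 1 had an unadjusted p under 0.05. Dlx5, which drives osteoblast formation, was the most abundant of them, with 16.5, 23.9 and 22.6 RPKM with EPZ6438, against 9.82, 11.7 and 16.4 RPKM with DMSO (log2 change 0.74 ± 0.21, adjusted p = 0.0919). Its arms did not overlap, and it passed without DMSO replicate 3 (adjusted p = 0.0278) and with a replicate block (adjusted p = 0.0157), in a range of 0.0157 to 0.280 over all settings. Of 16 tested bone and matrix genes, 2 rose (Cxcl12 and Aqp1) and 4 fell (Cav1, Cav2, Cald1 and Mfap5), and the median log2 change was -0.16. None of 4 tested Wnt and Hedgehog genes passed by limma or voom, and 0 had an unadjusted p under 0.05. Smo, the Hedgehog signal transducer, stayed at 61.8 to 65.9 RPKM with EPZ6438 and 57.9 to 66.8 RPKM with DMSO.

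Of 8 tested imprinted genes and their neighbours, 1 rose (Asb4) and 1 fell. The fall was Mest, an imprinted gene of embryonic mesoderm, with 71.6, 64.8 and 70.4 RPKM with EPZ6438, against 113, 99.8 and 92.6 RPKM with DMSO (log2 change -0.56 ± 0.09, adjusted p = 0.0157). Of 8 growth and cell cycle genes, 1 fell, the cell cycle inhibitor gene Cdkn1b (log2 change -0.51, adjusted p = 0.0181). Of 6 tested glycolysis and sugar genes, 2 rose. They were Hk2, a hexokinase (log2 change 0.41, adjusted p = 0.0337), and Akr1b3, an aldose reductase (log2 change 0.51, adjusted p = 0.0291). None of 11 chromatin genes passed by limma or voom, and 1 had an unadjusted p under 0.05. Of 58 genes with Klr or Clec names or with immune roles (Cd69, Cd4 and Lag3), 5 were tested and 46 had no read in any library. Clec2d, which lies within the span of the Klr genes of distal chromosome 6 (chr6:122270596-131247362), fell. That span also holds unrelated genes, C1s1 among them. Clec2l (chr6:38663069-38680864) and Klrg2 (chr6:38626660-38637239), which rose, lie outside that span. Silent families were large: 106 of 109 taste and vomeronasal receptor genes and 159 of 163 immunoglobulin and T cell receptor segments had no read. Of 26 neuronal genes 1 was tested, Sox5, a transcription factor that cartilage also uses, and it did not pass (adjusted p = 0.613). Of 3 adipocyte genes 1 was tested, Adipor2, which did not pass (adjusted p = 0.729).

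Genes with H3K27me3 within 1 kb of a promoter in DMSO were read against their RNA, which did not enter the choice of the chromosome. Of 46 such tested genes on chromosome 6, 12 rose and none fell by limma, with a median log2 change of 0.17. At an unadjusted p under 0.05, 17 were higher and 3 lower with EPZ6438, and by voom 14 rose and 1 fell. The 12 include 2 entries of Mical3, which lie side by side without overlap. The mark was joined to genes by name, so this name counts as 2 of the 12. The 12 became 3, 4 and 4 without EPZ6438 replicates 1, 2 and 3, 3 without DMSO replicate 2 and 5 with no filter on low values. On the other autosomes 79 of 484 rose (16.3%) and 5 fell (1.03%), with a median of 0.15. Of the 14 chromosome 6 genes with H3K27me3 alone in DMSO, 7 rose, against 19.2% of 245 elsewhere. Of the 32 with both marks, 5 rose (15.6%), against 13.4% of 239. Those 14 tested genes come from 145 with H3K27me3 alone, as most had too few reads. Chn2, Asb4 and B4galnt3 had under 10 reads in every DMSO library and passed the filter only through EPZ6438. Such genes can enter only as higher with EPZ6438, so the counts of rises and falls here are partly set by the filter. Among 296 genes with H3K4me3 alone, 11 rose and 12 fell. Of 468 tested genes with a promoter on chromosome 6, those 46 are 9.83%. H3K27me3 in DMSO was found at 7 of the 10 largest rises with at least 1 CPM in the higher arm. They were Chn2, Asb4, B4galnt3, Zfp467, Clec2l, Dync1i1 and Cracr2a, and 3 of them, Chn2, Asb4 and Clec2l, had it also with EPZ6438. At Chn2 the EPZ6438 peak (chr6:54268321-54268540) lay near another promoter of the gene than the one printed above. It overlapped no DMSO peak of the mark found near the Chn2 promoters. Tspan12, a larger rise than some of those 7 but below the CPM limit, was not among the 46 genes. None of the 8 largest falls with a promoter in the table had it in either arm. Of 37 tested genes that had H3K27me3 near the promoter in DMSO only, 9 rose (24.3%), against 14.7% elsewhere, and of 9 that had it in both arms, 3 rose (33.3%), against 31.25% elsewhere. Of the tested genes of chromosome 6, 69.2% had a promoter in the table.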

How the data were processed

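RNA was taken from the authors' RPKM table, in which each gene's reads are divided by its length and the library total, per the file headers. Peaks came from 4 deposited lists of other values, start and end positions with no score, made from merged samples with the input of that arm as control, per the file names. Per the submitters' processing notes, the build was mm10 and the tools included MACS2, HOMER, DiffBind, Picard, Subread and STAR 2.6.1c. Sources used here do not state caller thresholds or the strand setting. Members and gene lists were chosen with earlier results of these data known.

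RPKM times length gave whole reads for 100% of values (tolerance 0.001). A floor of 3 reads is 0.118 to 0.160 CPM. Genes that reached 10 reads in at least 3 libraries entered limma 3.58.1 (R 4.3.3; trend, two-sided) on log2(RPKM + 0.1) without a block, with Benjamini-Hochberg adjustment over all tested genes. Because the values are RPKM, no count test was the main one; voom on the recovered reads was an alternative. The 37 chrMT genes were at 0. Mb is the span from the first to the last peak or gene. Bins under 2.5 Mb of span were left out. Promoter windows were the RefSeq stretches of 300 bases with 1 kb added at each end, and overlap meant at least 1 bp. Peaks were handled with Python 3.11.15 and pandas 2.3.3. The limma step was tested on simulated data. Genes named are the 10 largest rises and falls of chromosome 6 with at least 1 CPM in the higher arm, its 5 highest RPKM, passing or most abundant list members and Ezh2; others are named for their peaks. Every pair of replicate libraries differed by more than sampling noise (chi-square per gene 6.58 to 63.2).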

Additional observations from a re-analysis of the deposited data

How the results depend on the processing

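Density ratios of chromosome 6 to the other autosomes moved with how peaks were counted, and each stayed above 1 except where noted. For H3K27me3 with EPZ6438 the ratio of 1.92 was 2.35 for peaks of at least 400 bp, 2.32 per gene, 2.35 by covered bases and 2.22 without the 3 densest bins of every chromosome. For H3K27me3 with DMSO the ratio of 1.43 was 1.60, 1.72, 1.65 and 1.56 under the same settings, and 1.41 with peaks within 1 kb joined. For H3K4me3 with EPZ6438 the ratio of 1.03 was 1.11 for peaks of at least 400 bp, 1.16 by covered bases, 1.17 without the densest bins and 0.956 with peaks joined. For H3K4me3 with DMSO the ratio of 1.80 was 1.72 for peaks of at least 400 bp, 1.87 per gene, 1.87 without the densest bins and 1.87 without chromosome 19, a setting added after seeing the data. Asking for 50% of a peak gave 7.64% in place of 14.1% for H3K27me3 between arms and 57.7% in place of 60.7% for H3K4me3 on H3K27me3 in DMSO. With peaks of at least 400 bp these were 13.4% and 38.6%, H3K4me3 between arms was 50.4% (337 peaks), and H3K4me3 on H3K27me3 with EPZ6438 was 0 of 534. The count of 64 changed genes was 39 with no filter on low values, where more genes are tested, and 16 to 64 with 1 library left out. With no filter, 3.57% of tested chromosome 6 genes changed, against 2.71% of all tested genes. Calls of the 26 named genes that passed were lost most often without DMSO replicate 2 or EPZ6438 replicate 1, 14 each. The difference in read share was -0.112 points without Col1a2, in place of 0.271, and 0.0919 to 0.445 with 1 library left out. The ratio of RNA levels, whose alternatives were added after seeing the data, was 1.34 at 5 RPKM or more, 1.24 at 0.1 RPKM or more and 1.39 to 1.44 with 1 library left out. Same-numbered replicates of the arms had correlations of 0.410, 0.0781 and 0.0561, so the numbers are not taken to pair samples. With a replicate block 63 chromosome 6 genes changed, 51 of them shared with the fit without it, and the read share difference stayed 0.271. The cause of these shifts was not tested. The median log2 change stayed between -0.06 and 0.00 in all settings. Depth limits the lowest genes, where a floor of 3 reads applies.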

Other observations

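Neighbouring genes of chromosome 6 picked out with their values in view moved both ways. Cav2, which lies beside Cav1 and encodes its partner in caveolae, had 17.2, 16.1 and 14.8 RPKM with EPZ6438, against 27.7, 24.2 and 21.0 RPKM with DMSO, and fell (log2 change -0.59, adjusted p = 0.0304). Tes, a focal adhesion protein gene next to that pair, had 1.74, 1.68 and 1.55 RPKM with EPZ6438, against 0.748, 0.956 and 0.924 RPKM with DMSO, and rose (log2 change 0.85, adjusted p = 0.0197). C1ra, a complement protease gene beside C1s1, had 50.2, 50.6 and 49.5 RPKM with EPZ6438, against 64.7, 66.1 and 64.6 RPKM with DMSO, and fell (log2 change -0.38, adjusted p = 0.0153). Its near copy C1rb, with H3K27me3 near its promoter in DMSO, had 1.98, 1.09 and 2.03 RPKM with EPZ6438, against 3.19, 3.46 and 3.28 RPKM with DMSO, and did not pass (adjusted p = 0.0547).

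Asns, Mthfd2 and Eif2ak3 were among the other rises on chromosome 6. Asns, which makes asparagine, had 79.9, 69.0 and 78.1 RPKM with EPZ6438, against 56.2, 51.1 and 44.8 RPKM with DMSO (log2 change 0.58, adjusted p = 0.0218). Mthfd2, a mitochondrial folate enzyme, had 65.4, 61.1 and 63.2 RPKM with EPZ6438, against 49.4, 46.8 and 45.6 RPKM with DMSO (log2 change 0.42, adjusted p = 0.0156). Eif2ak3, a kinase that senses misfolded protein, had 17.9, 17.5 and 16.4 RPKM with EPZ6438, against 11.8, 12.4 and 13.0 RPKM with DMSO (log2 change 0.48, adjusted p = 0.0171). The arms did not overlap for any of these 3 genes, which were chosen after their values were seen.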
